A study of Homo sapiens with 12 samples.

Results

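The Krüppel-like factors KLF2, KLF3, KLF4, KLF6, KLF9, KLF10, KLF11 and KLF13 were followed as a set of 8 genes, taken by gene name from a table of 59172 features. They were picked as family members known to respond to statins and stress, and all 8 passed the filter on low values that left 17974 genes to test. The cells were HCT-116, a human colorectal carcinoma line labelled as colon cancer cells, and each of 4 groups had 3 libraries of total RNA. The groups were SHP2-silenced cells given CPT-11 for 24 h, and wild-type cells pretreated with lovastatin for 4 h and given CPT-11 for 24 h. The others were wild-type cells given CPT-11 for 24 h, and untreated wild-type cells. SHP2, the phosphatase encoded by PTPN11, was silenced by short hairpin RNA as the sample titles abbreviate it, and the labels do not say whether these cells were 1 clone, nor what control hairpin, if any, the other cells carried. One label of the silenced samples also lists lovastatin, which their titles do not, and they were grouped by title. No group had lovastatin without CPT-11, so a change with lovastatin here is a change in cells that also had CPT-11. Silenced cells without CPT-11 were also absent. A change in silenced against untreated cells therefore joins silencing and CPT-11, which cannot be told apart there. The series concerns DNA damage by chemotherapy and cGAS-STING signalling in colon cancer.

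Krüppel-like factors bind GC-rich and CACCC sequences through zinc fingers at their carboxyl end, and the related SP factors bind the same kind of site. Some members activate and others repress, depending on the partners that their amino-terminal parts recruit. In endothelial cells, statins raise KLF2 and KLF4 through the MEK5-ERK5-MEF2 cascade. In the gut, KLF4 is known for the differentiated epithelium, KLF6 for growth arrest, and KLF10 and KLF11 for early responses to TGF-beta.

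The promoters of KLF2 and KLF6 are shown because these 2 genes held 8 of the 14 changes that passed the test. Windows ran from 250 bases before to 50 bases after the RefSeq start on GRCh38.p14, and 6 of the 8 members had at least 1 window. The KLF2 window is chr19:16324576-16324875 on the plus strand, with capitals on its only match to the MEF2 consensus, which starts at position -120 from the start site. The KLF6 window is chr10:3785160-3785459 on the minus strand, with capitals on 2 matches to CCAAT, read there as ATTGG on the opposite strand, at positions -184 and -131.
KLF2 promoter: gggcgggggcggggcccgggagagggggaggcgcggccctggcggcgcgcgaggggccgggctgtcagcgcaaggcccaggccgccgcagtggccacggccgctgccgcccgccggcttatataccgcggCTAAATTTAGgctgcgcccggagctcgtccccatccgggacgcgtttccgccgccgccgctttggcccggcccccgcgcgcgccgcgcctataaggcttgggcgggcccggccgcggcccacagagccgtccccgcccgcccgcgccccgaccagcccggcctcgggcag
KLF6 promoter: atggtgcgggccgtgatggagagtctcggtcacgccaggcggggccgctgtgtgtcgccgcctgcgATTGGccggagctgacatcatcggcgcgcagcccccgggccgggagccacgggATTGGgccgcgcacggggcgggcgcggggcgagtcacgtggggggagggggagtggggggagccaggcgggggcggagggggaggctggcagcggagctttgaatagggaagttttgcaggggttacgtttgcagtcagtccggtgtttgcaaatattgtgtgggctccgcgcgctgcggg
Both strands were searched for 6 motifs in all 35116 RefSeq promoter windows, and none of the matches in capitals overlapped a match to another motif. A MEF2 consensus match was in 2.99% of all windows and, among the members with a window, in that of KLF2. CCAAT was in 34.6% of all windows and in those of KLF6, KLF9 and KLF13. The GC box GGGCGG was in 45.0% of all windows, with 6 matches in the KLF2 window and 2 in the KLF6 window. CACCC was in 59.9% of windows, CACGTG in 7.26% and TGACGTCA in 1.85%, and the KLF2 window held none of these 3. CACGTG was in the KLF6 window at position -97, and in a window each of KLF4 and KLF11. A window each of KLF11 and KLF13 held CACCC, and a window of KLF11 held TGACGTCA. The KLF2 window was 80.7% G and C, and the KLF6 window 70.7%, against a median of 58.7% over all windows. A match is a string of letters, and no binding was measured.

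The libraries held 14447847 to 16224271 reads assigned to genes. PTPN11 had 6.01, 6.54 and 7.15 FPKM in the silenced libraries, against 43.2 to 55.4 FPKM in the other 9. HMGCS1, a sterol-regulated enzyme of cholesterol synthesis, had 24.9 to 25.8 FPKM in silenced cells and 101 to 105 with lovastatin and CPT-11, against 25.2 to 31.2 with CPT-11 alone and 28.1 to 31.0 in untreated cells. Of 8 colon epithelium markers 6 were tested, and the list summed to 577 to 588 FPKM in silenced cells, 567 to 594 with lovastatin and CPT-11, 514 to 549 with CPT-11 and 500.1 to 547 in untreated cells. Endothelial, blood and fibroblast markers summed to at most 0.381, 0.389 and 6.13 FPKM in any library, and no marker was at 0 in all 12 libraries. Fibroblast markers summed to 5.39 to 6.13 FPKM in silenced cells, 4.85 to 5.24 with lovastatin and CPT-11, 3.56 to 5.19 with CPT-11 and 3.20 to 3.95 in untreated cells, and their part in the results was not tested. The CPT-11 replicate 3 library stood apart from the other 2 of its group. Its log2 values differed from theirs by 0.330 (root mean square), against 0.152 to 0.250 for every other library. It also had a GC slope, the trend of a library's log2 values over transcript GC content, of 0.079 log2 units per 10 points of GC, against -0.147 and -0.171 in the other 2 libraries. KLF genes that rest on it are given with and without it, and lists by their counts without it.

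Levels are in FPKM, reads per gene scaled for library depth and gene length. Genes were compared on this scale, which does not correct for differences in GC content between genes. KLF2, KLF10 and KLF6 were the most abundant of the 8, with means over the 4 groups of 31.3, 28.98 and 23.2 FPKM, and the library ranges of neighbours in this order overlapped. KLF13 followed at 12.8 FPKM, then KLF3 at 8.09 and KLF4 at 7.97 FPKM, whose ranges also overlapped. KLF11 at 2.93 FPKM and KLF9 at 2.49 FPKM were the lowest and could not be ordered beyond their spread. The order of the top 3 differed between groups. In untreated cells the 3 KLF2 libraries lay above those of KLF10 and KLF6. In silenced cells KLF2 had 24.6 to 28.4 FPKM and KLF10 22.8 to 24.2, and with lovastatin and CPT-11 the KLF2 libraries (28.3 to 31.9 FPKM) enclosed those of KLF10 (28.8 to 29.7). After correction of each library for GC content and length, KLF10 was above KLF2 in both of these groups. The mean log2 values were 4.65 and 4.57 in silenced cells and 4.92 and 4.89 with lovastatin and CPT-11. That correction was made on each gene's deviations from its own mean over the 12 libraries. It therefore cannot show which of the 2 genes is more abundant. In CPT-11 cells KLF10 had 31.3 ± 1.6 FPKM, KLF6 21.6 ± 1.2 and KLF2 21.6 ± 6.8 (SD, n = 3). Across the 4 groups the highest mean was 2.16 times the lowest for KLF2, and 1.14 to 1.48 times for the other 7.

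**Figure D1:**
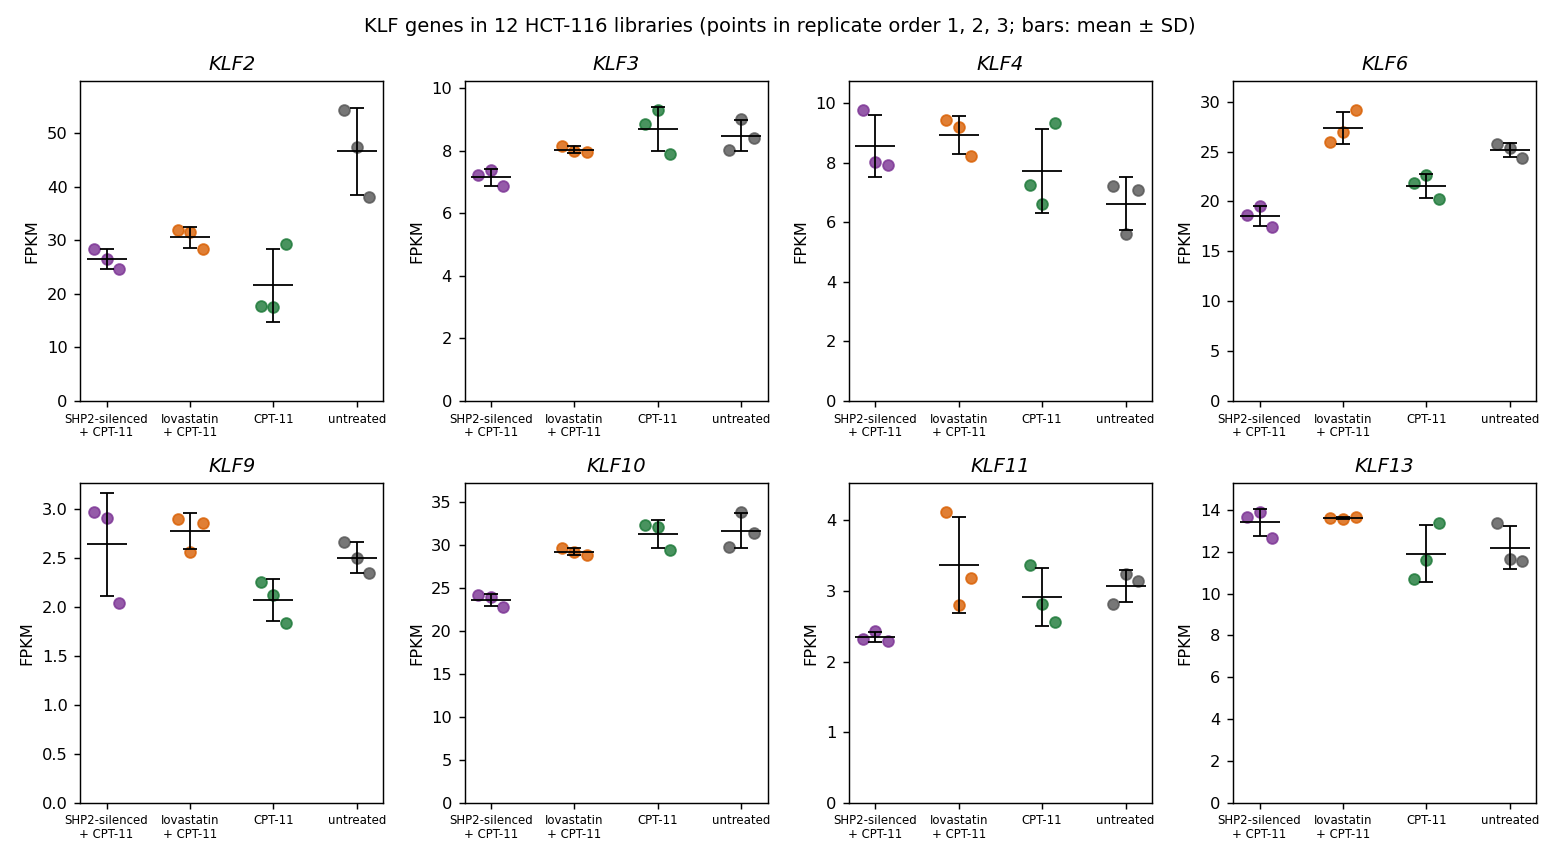
FPKM of the 8 KLF genes in each library, with SHP2-silenced, lovastatin and CPT-11, CPT-11 and untreated cells from left to right; points are libraries, and bars the mean and SD of 3. KLF2 is highest in the 3 untreated libraries (38.1 to 54.3 FPKM), and KLF10 lowest in the 3 silenced ones (22.8 to 24.2 FPKM).

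In all, 14 of the 48 comparisons of a member passed the test (limma, Benjamini-Hochberg adjusted p under 0.05 over all tested genes), and these share groups, so they are not independent. KLF2 fell in all 3 CPT-11 groups relative to untreated cells. KLF6 fell in silenced cells against each other group. It fell also with CPT-11 against untreated cells, and was higher with lovastatin and CPT-11 than with CPT-11 alone. KLF10 fell in silenced cells against each other group, KLF3 fell there against untreated and CPT-11 cells, and KLF4 rose with lovastatin and CPT-11 against untreated cells. KLF9, KLF11 and KLF13 passed in no comparison.

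With CPT-11 against untreated cells, 2 of 8 members passed, both lower, where 16.7% of all tested genes passed. With lovastatin and CPT-11 against untreated cells, 2 passed, 1 in each direction, where 29.1% of all genes passed. In silenced CPT-11 cells against untreated cells, 4 passed, all lower, where 38.1% of all genes passed. With lovastatin and CPT-11 against CPT-11 alone, 1 passed, higher, where 0.467% of all genes passed. In silenced CPT-11 cells against CPT-11 cells, 3 passed, all lower, where 22.2% of all genes passed. In silenced CPT-11 cells against lovastatin and CPT-11 cells, 2 passed, both lower, where 6.91% of all genes passed. Without CPT-11 replicate 3, 5459 of 17974 genes passed with lovastatin and CPT-11 against CPT-11, in place of 84, and 3 of 8 members. Without the same library 7844 of 17974 genes passed in silenced against CPT-11 cells, in place of 3993, and 5 of 8 members. The members' shares were near those of all genes in the comparisons with untreated cells, so those counts are no result about the family. Between treated groups the counts of all genes changed with CPT-11 replicate 3. The members' counts there are descriptions, and no result about the family either. Their median log2 change was -0.25 in silenced against untreated cells and 0.19 with lovastatin and CPT-11 against CPT-11, where the median of all genes was 0.00 in both, and it lay between -0.17 and 0.10 in the other 4 comparisons.

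**Figure D2:**
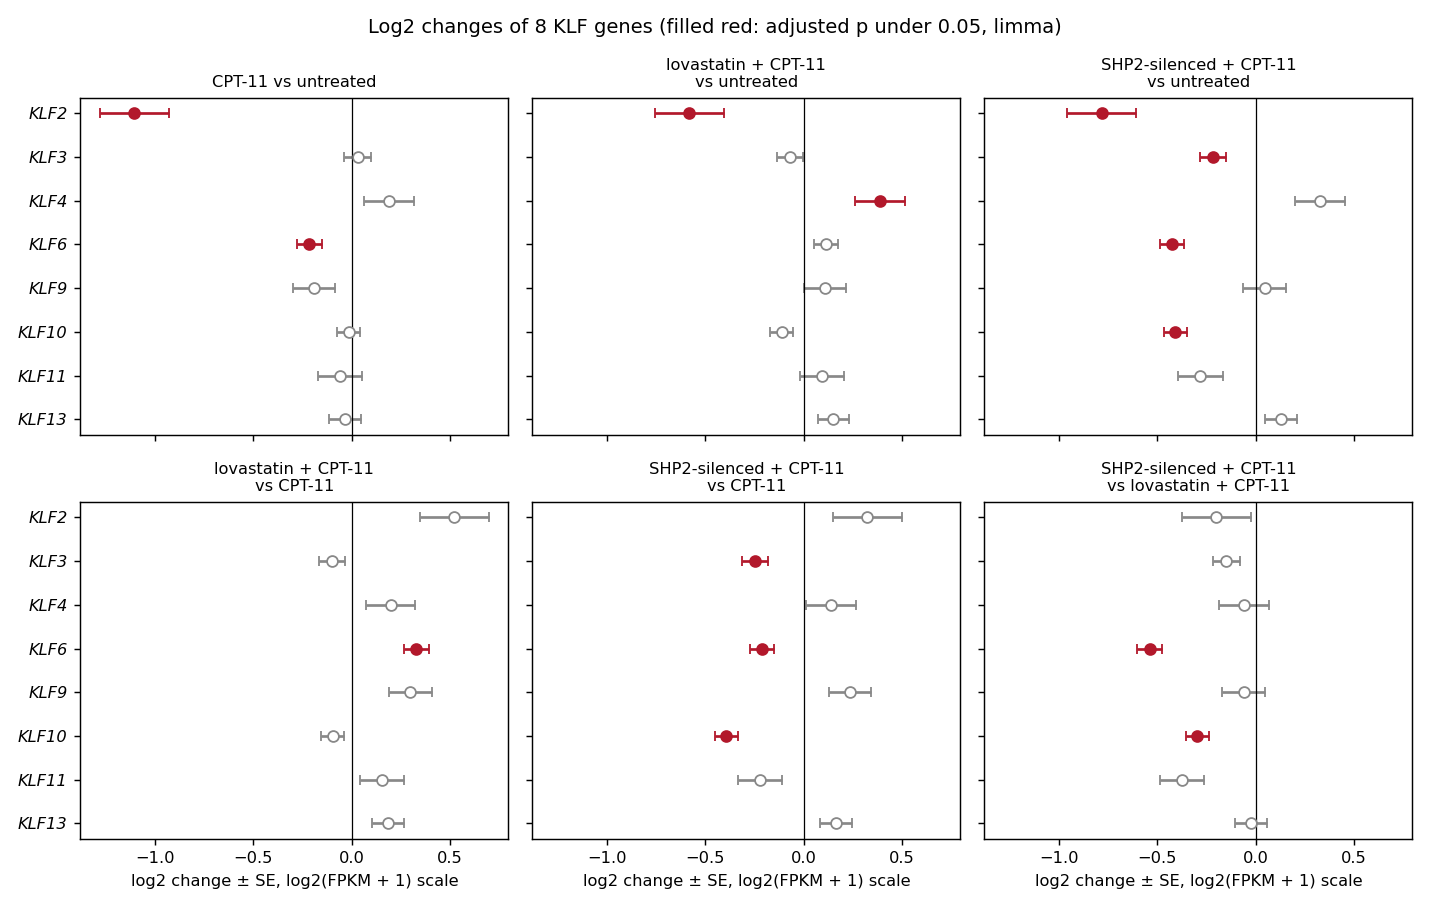
Log2 change ± SE of the 8 KLF genes in the 6 comparisons, on the log2(FPKM + 1) scale; filled red points passed the test (limma, adjusted p under 0.05). KLF2 lies left of 0 in the 3 comparisons with untreated cells (-1.10, -0.58 and -0.78), and KLF10 in the 3 comparisons of silenced cells (-0.41, -0.39 and -0.30).

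KLF2, a regulator of quiescence in endothelial and T cells and the best known statin target of the family, had the largest change of the 8. The gene is ENSG00000127528, on chromosome 19 from 16324817 to 16327874 on the plus strand of GRCh38. It measured 28.4, 26.4 and 24.6 FPKM in silenced cells, 31.9, 31.4 and 28.3 with lovastatin and CPT-11, 17.8, 17.6 and 29.4 with CPT-11, and 54.3, 47.5 and 38.1 in untreated cells. All 9 libraries with CPT-11 lay below the 3 untreated ones. The log2 change against untreated cells was -0.78 ± 0.18 in silenced cells (adjusted p = 0.0050), -0.58 ± 0.18 with lovastatin and CPT-11 (adjusted p = 0.028) and -1.10 ± 0.18 with CPT-11 alone (adjusted p = 0.0015). The mean with CPT-11 alone was thus 0.462 of that in untreated cells. The pseudogene KLF2P1 had 11 to 61 reads a library, against 542 to 1586 for KLF2, and reads could be split between them. In bulk RNA, fewer cells with the transcript and less transcript per cell cannot be told apart. The fall with lovastatin and CPT-11 missed the threshold when any of lovastatin replicates 1 to 3 or untreated replicates 1 and 2 was left out, with log2 changes of -0.61 to -0.47 and adjusted p of 0.057 to 0.094. The other 2 falls of KLF2 passed under all 21 alternatives tried.

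Between treated groups KLF2 did not pass. Its log2 difference was 0.52 ± 0.18 for lovastatin and CPT-11 against CPT-11 alone (adjusted p = 0.18, 95% interval 0.14 to 0.91, not adjusted for the number of genes), and 0.32 ± 0.18 for silenced against CPT-11 cells (adjusted p = 0.20, interval -0.06 to 0.71). Silenced and lovastatin cells differed by -0.20 ± 0.18 (adjusted p = 0.57). CPT-11 replicate 3, at 29.4 FPKM, lay among the libraries of the other treated groups, and the other 2 CPT-11 libraries lay below all of them. Without it, KLF2 was higher in both other treated groups than in CPT-11 cells, by 0.76 with lovastatin (adjusted p = 0.0019) and by 0.56 with silencing (adjusted p = 0.0036).

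KLF2 has a GC-rich transcript, 65.2% G and C over the longest annotated transcript, above 96.5% of tested genes. Within each of the 4 groups the order of its 3 libraries was the order of their GC slopes, which held for 1.20% of all tested genes (216 of 17974). Among the other 7 members this order held in 3 groups for KLF4 (55.0% G and C), in 2 for KLF9 and KLF10 (46.3% and 47.2%), in 1 for KLF3, KLF6 and KLF13 (41.5%, 45.9% and 57.6%) and in none for KLF11 (46.8%). Of 15 other tested KLF and SP genes it held in all 4 groups for KLF16 (67.8%) and SP6 (60.4%), and in 0 to 2 for the other 13, SP5 (66.2%) at 2 and KLF15 (60.5%) at 0 among them. The GC slope was 0.099 to 0.128 in silenced libraries, 0.012 to 0.072 with lovastatin and CPT-11, -0.171 to 0.079 with CPT-11 and -0.136 to -0.012 in untreated libraries. After each library was corrected for GC content and length, KLF2 fell against untreated cells by 1.11 on the log2 scale in silenced cells, by 0.80 with lovastatin and CPT-11 and by 1.07 with CPT-11, with adjusted p of 1.3e-06, 1.9e-05 and 3.3e-06. The corrected difference of lovastatin and CPT-11 to CPT-11 was 0.27 (adjusted p = 0.11), or 0.35 without CPT-11 replicate 3 (adjusted p = 0.011). For silenced against CPT-11 cells it was -0.04 (adjusted p = 0.74), or 0.04 without that library (adjusted p = 0.75). For silenced against lovastatin cells it passed, at -0.32 (adjusted p = 0.025).

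**Figure D3:**
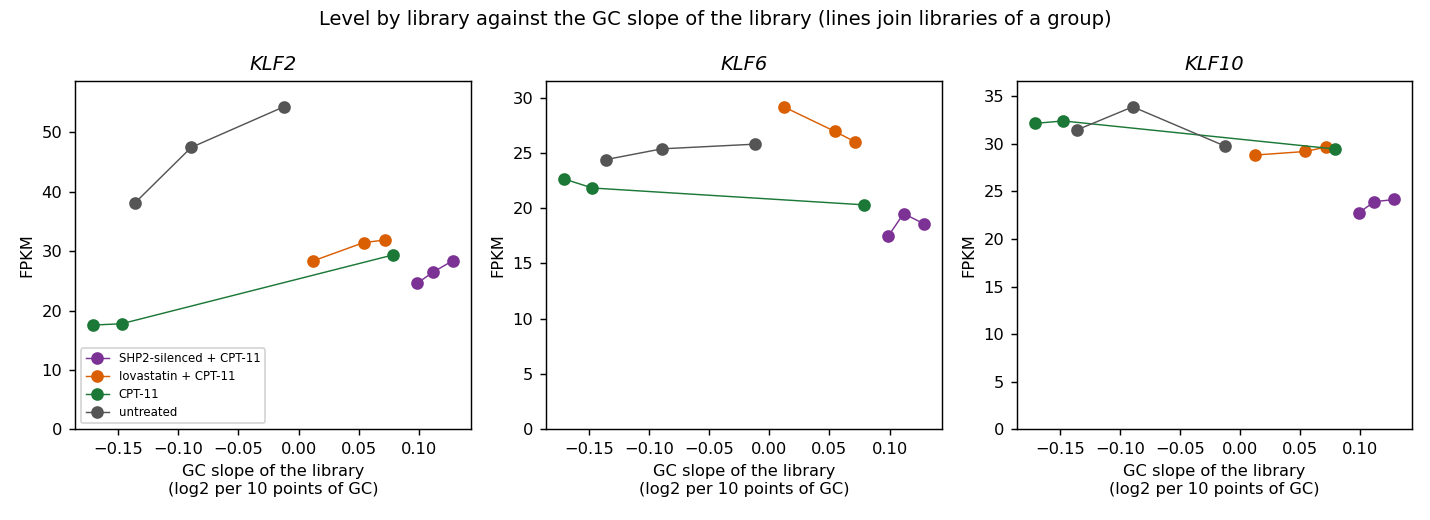
FPKM of KLF2, KLF6 and KLF10 in each library against the library's GC slope, in log2 units per 10 points of GC; colours mark the 4 groups, and lines join libraries of a group. The KLF2 lines rise in all 4 groups, from 17.6 to 29.4 FPKM among CPT-11 libraries, and the 3 untreated KLF2 values lie above the other 9.

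KLF6, which restrains growth and activates the cell cycle inhibitor CDKN1A in several tissues, separated the treated groups. The gene is ENSG00000067082, on chromosome 10 from 3775996 to 3785281 on the minus strand of GRCh38. It had 18.6, 19.5 and 17.5 FPKM in silenced cells, 26.0, 26.9 and 29.2 with lovastatin and CPT-11, 21.8, 22.6 and 20.3 with CPT-11, and 25.8, 25.4 and 24.4 in untreated cells. No 2 groups overlapped: silenced libraries were lowest, then CPT-11, then untreated, then lovastatin and CPT-11. In silenced cells KLF6 fell by 0.42 on the log2 scale against untreated cells (SE 0.062, adjusted p = 0.00037) and by 0.54 against lovastatin and CPT-11 cells (SE 0.062, adjusted p = 0.00038), and both passed under all 21 alternatives. The other 3 passed by less. Silenced cells lay at -0.21 ± 0.06 to CPT-11 cells (adjusted p = 0.035), CPT-11 cells at -0.21 ± 0.06 to untreated cells (adjusted p = 0.036), and lovastatin and CPT-11 cells at 0.33 ± 0.06 to CPT-11 cells (adjusted p = 0.049).

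These 3 differences kept their direction under all 21 alternatives, but passed in 7, 10 and 6 of them. The difference of silenced to CPT-11 cells missed the threshold without any of silenced replicates 1 to 3, lovastatin replicate 2, CPT-11 replicates 1 and 2 or untreated replicate 2 (log2 change -0.25 to -0.17, adjusted p 0.052 to 0.13). It was -0.13 after the GC correction (adjusted p = 0.12). That of CPT-11 to untreated cells missed it without any of silenced replicate 1, lovastatin replicate 2, CPT-11 replicates 1 and 3 or untreated replicates 1 to 3 (-0.24 to -0.17, adjusted p 0.053 to 0.10). That of lovastatin and CPT-11 to CPT-11 missed it without any 1 library other than CPT-11 replicate 3 (0.28 to 0.36, adjusted p 0.061 to 0.18), and passed without that library at 0.29 (adjusted p = 0.0058) and after the GC correction at 0.38 (adjusted p = 0.0049). Lovastatin and CPT-11 cells against untreated cells stood at 0.11 ± 0.06 (adjusted p = 0.19), and at 0.17 after that correction (adjusted p = 0.027).

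KLF10, an early gene of the TGF-beta response that represses transcription, was low in silenced cells. The gene is ENSG00000155090, from 102648779 to 102655902 on the minus strand of its chromosome. It had 24.2, 23.9 and 22.8 FPKM there, 29.7, 29.2 and 28.8 with lovastatin and CPT-11, 32.4, 32.2 and 29.5 with CPT-11, and 29.8, 33.9 and 31.5 in untreated cells. The silenced libraries lay below the other 9, which ran from 28.8 to 33.9 FPKM. The log2 change in silenced cells was -0.41 ± 0.06 against untreated cells (adjusted p = 0.00030), -0.39 ± 0.06 against CPT-11 cells (adjusted p = 0.0020) and -0.30 ± 0.06 against lovastatin and CPT-11 cells (adjusted p = 0.011). All 3 passed under all 21 alternatives, the GC correction and the fit without CPT-11 replicate 3 among them. The differences among the other 3 groups were -0.11 to -0.02 and did not pass. For CPT-11 against untreated cells the 95% interval was -0.14 to 0.11.

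**Figure D4:**
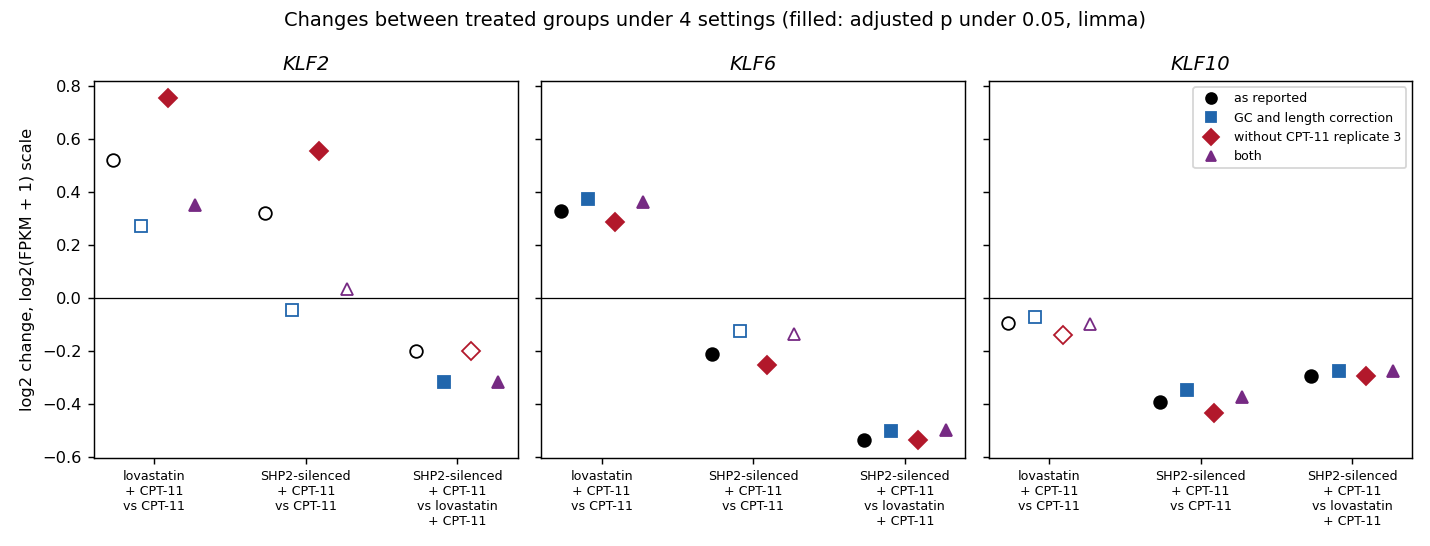
Log2 changes of KLF2, KLF6 and KLF10 between treated groups under 4 settings, on the log2(FPKM + 1) scale; filled symbols passed the test (limma, adjusted p under 0.05). KLF10 in silenced against CPT-11 cells passes under all 4, whereas KLF2 in the same comparison lies at 0.32, -0.04, 0.56 and 0.04 as reported, with the GC correction, without CPT-11 replicate 3, and with both.

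KLF3, a repressor that works through CtBP, averaged 7.15 ± 0.27 FPKM in silenced cells, 8.03 ± 0.10 with lovastatin and CPT-11, 8.69 ± 0.71 with CPT-11 and 8.48 ± 0.50 in untreated cells (SD, n = 3). The silenced libraries, at 7.21, 7.38 and 6.86 FPKM, lay below the other 9, of which the lowest had 7.91 FPKM. After the GC correction they overlapped the untreated libraries, at log2 values of 3.06 to 3.16 against 3.12 to 3.24. The log2 change in silenced cells was -0.22 ± 0.07 against untreated cells (adjusted p = 0.025) and -0.25 ± 0.07 against CPT-11 cells (adjusted p = 0.027). After the GC correction these were -0.05 and -0.08 (adjusted p = 0.45 and 0.25), and scaling to total reads left the first at -0.13 (adjusted p = 0.13). Without any of silenced replicates 1 and 3 or untreated replicates 2 and 3 the first missed the threshold (-0.22 to -0.18, adjusted p 0.058 to 0.10), and without any of silenced replicates 1 to 3 or CPT-11 replicates 1 and 2 so did the second (-0.27 to -0.20, adjusted p 0.062 to 0.11). KLF3 shares exon bases with KLF3-AS1 on the opposite strand, which had 1.95 to 17.5 scaled reads, against 695 to 904 reads for KLF3. No source used here states whether counting used strand, and without strand the reads of such a pair cannot be told apart.

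KLF4, which drives differentiation of the gut epithelium and is induced by DNA damage, had 9.77, 8.02 and 7.91 FPKM in silenced cells, 9.42, 9.19 and 8.21 with lovastatin and CPT-11, 7.24, 6.63 and 9.33 with CPT-11, and 7.21, 5.60 and 7.07 in untreated cells. The untreated libraries lay below those of both the silenced and the lovastatin groups, and CPT-11 libraries overlapped all 3 other groups. KLF4 rose by 0.39 ± 0.13 on the log2 scale with lovastatin and CPT-11 against untreated cells (adjusted p = 0.039). The change in silenced cells was 0.33 ± 0.13 (adjusted p = 0.060) and with CPT-11 alone 0.19 ± 0.13 (adjusted p = 0.35, 95% interval -0.09 to 0.47). Lovastatin and CPT-11 against CPT-11 alone gave 0.20 ± 0.13 (adjusted p = 0.37). The rise with lovastatin and CPT-11 missed the threshold without any of silenced replicate 2, lovastatin replicates 1 and 2 or untreated replicates 2 and 3 (0.29 to 0.43, adjusted p 0.052 to 0.15). The change in silenced cells passed in 5 of 21 alternatives, among them the fits without CPT-11 replicate 2 or 3 (adjusted p = 0.049 and 0.021). Over the 21 it ran from 0.22 to 0.41 (adjusted p 0.021 to 0.22). With the GC correction it did not pass, at mean log2 values of 3.19 in silenced and 2.97 in untreated cells. The rise with lovastatin and CPT-11 was 0.31 with that correction (adjusted p = 0.044).

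KLF13, an activator of CCL5 in T cells, had 12.7 to 13.9 FPKM in silenced cells, 13.6 to 13.7 with lovastatin and CPT-11, 10.7 to 13.4 with CPT-11 and 11.5 to 13.4 in untreated cells. Its log2 changes ran from -0.03 to 0.19 and none passed. CPT-11 replicate 3 was the highest of its group, and without it KLF13 was higher than in CPT-11 cells by 0.27 with lovastatin (adjusted p = 0.015) and by 0.25 with silencing (adjusted p = 0.014). With that library left out and the GC correction made as well, the values were 0.14 and 0.08 (adjusted p = 0.11 and 0.31). KLF13 has 57.6% G and C.

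KLF11, a TGF-beta-inducible repressor that binds SIN3A, had 2.32, 2.43 and 2.29 FPKM in silenced cells, 4.12, 2.80 and 3.19 with lovastatin and CPT-11, 3.36, 2.82 and 2.57 with CPT-11, and 2.82, 3.24 and 3.14 in untreated cells. The silenced libraries were the lowest 3 of 12, and how many of all tested genes share this order was not counted. Their log2 differences were -0.28 ± 0.11 to untreated cells (adjusted p = 0.070), -0.22 ± 0.11 to CPT-11 cells (adjusted p = 0.17) and -0.37 ± 0.11 to lovastatin and CPT-11 cells (adjusted p = 0.072). The first passed without lovastatin replicate 1 (adjusted p = 0.036) and the last without CPT-11 replicate 3 (adjusted p = 0.042). KLF9, which glucocorticoids and thyroid hormone induce, had 2.03 to 2.97 FPKM in silenced cells, 2.56 to 2.90 with lovastatin and CPT-11, 1.83 to 2.25 with CPT-11 and 2.34 to 2.66 in untreated cells. The 3 CPT-11 libraries lay below those of untreated cells and of lovastatin and CPT-11 cells without overlap. The differences were -0.19 ± 0.11 for CPT-11 against untreated cells (adjusted p = 0.27) and 0.30 ± 0.11 for lovastatin and CPT-11 against CPT-11 (adjusted p = 0.19). For silenced against CPT-11 cells KLF9 stood at 0.24 ± 0.11 (adjusted p = 0.13), and passed at 0.36 without silenced replicate 3 (adjusted p = 0.035). These 2 genes had 157 to 309 reads a library, the fewest of the 8.

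The genes with the most similar pattern were found among 7289 protein-coding genes by the root mean square difference of centred log2(FPKM + 1) over the 12 libraries, for the 5 members with a passing change. Nearest to KLF2 were HIST3H2A, a histone H2A gene (0.10), and ARHGDIA (0.13), where the median candidate stood at 0.47. HIST3H2A has 57.7% G and C and ARHGDIA 64.7%, against 65.2% for KLF2. ARHGDIA, like KLF2, was low in CPT-11 replicates 1 and 2 (33.5 and 30.8 FPKM, against 47.8 in replicate 3). Likeness over these same libraries was the rule that picked the genes, so it is no separate result. Nearest to KLF6 were IDH1, the cytosolic isocitrate dehydrogenase (0.073), and DPYSL2 (0.081). IDH1 averaged 19.7 FPKM in silenced cells, 29.7 with lovastatin and CPT-11, 22.9 with CPT-11 and 26.4 in untreated cells. CHSY1 (0.041) and FAM114A1 (0.046) were nearest to KLF10, SLC37A3 (0.044) and RMDN1 (0.046) to KLF3, and ERCC1 (0.084) and TMEM159 (0.086) to KLF4.

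Of 18 other KLF and SP genes, 15 were tested. In silenced against untreated cells 1 rose and 6 fell, with lovastatin and CPT-11 against untreated cells 3 rose and 5 fell, and with CPT-11 against untreated cells 2 rose and 5 fell. SP1, the general activator at GC boxes, averaged 16.3 ± 0.4 FPKM in silenced cells, 18.7 ± 1.3 with lovastatin and CPT-11, 20.2 ± 2.6 with CPT-11 and 24.6 ± 0.5 in untreated cells (SD, n = 3). Its log2 change against untreated cells was -0.56, -0.38 and -0.28 in those 3 groups, all past the test. SP2, SP4 and KLF12 also fell in all 3 groups against untreated cells, with log2 changes of -0.65 to -0.39. SP3 fell in silenced cells (-0.45) and with lovastatin and CPT-11 (-0.39), and stood at -0.14 with CPT-11 (adjusted p = 0.27). KLF7 fell in silenced cells (-0.52) and with CPT-11 (-0.40), and stood at -0.26 with lovastatin and CPT-11 (adjusted p = 0.059). KLF5, which supports proliferation in the intestinal crypt, rose by 0.22 with lovastatin and CPT-11 (21.8 ± 0.3 FPKM) and by 0.19 with CPT-11 (21.2 ± 0.5 FPKM), against 18.6 ± 0.7 FPKM in untreated cells. SP6 rose in silenced cells (0.59) and with lovastatin and CPT-11 (0.60), and SP5 with lovastatin and CPT-11 (0.59). With the GC correction the changes of SP3 were -0.21 in silenced cells and -0.23 with lovastatin and CPT-11. In silenced cells it left SP4 at -0.26 against -0.47 without it, KLF12 at -0.29 against -0.53 and SP6 at 0.38 against 0.59, and with lovastatin and CPT-11 SP5 at 0.37 against 0.59. All of these still passed. KLF8 rose with CPT-11 (0.17, at 0.591 against 0.415 FPKM in untreated cells), and passed in 2 of 21 alternatives. Leaving out 1 library ended some of these calls. That of SP1 with CPT-11 missed the threshold without any of 7 libraries (silenced replicates 1 and 2, lovastatin replicate 2, CPT-11 replicate 1, untreated replicates 1 to 3; adjusted p 0.051 to 0.099). Without CPT-11 replicate 3 it was -0.18 (adjusted p = 0.038). With CPT-11, KLF5 missed it without CPT-11 replicate 1 or untreated replicate 1 or 3 (0.057 to 0.067). KLF7 did so without CPT-11 replicate 1 or untreated replicate 2 or 3 (0.051 to 0.056), and KLF12 without untreated replicate 3 (0.060). SP6 missed it without untreated replicate 3 in both comparisons, without silenced replicate 1 in silenced cells (0.058 to 0.070), and without lovastatin replicate 1 with lovastatin (0.076 to 0.079).

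Among treated groups, none of these 15 passed in lovastatin and CPT-11 against CPT-11 cells or in silenced against lovastatin cells (limma). At an unadjusted p under 0.05 there were 5 in each, and voom on the recovered reads passed 0 and 2. Without CPT-11 replicate 3, 4 rose and 3 fell in the first comparison, and 1 rose and 3 fell in the second. Of all 17974 tested genes, 5459 and 2459 then passed in these comparisons. In silenced against CPT-11 cells, KLF15 (0.68) and KLF16 (0.72) rose, and KLF8 (-0.19), SP1 (-0.28) and SP3 (-0.31) fell. KLF16 had 18.8, 17.6 and 17.0 FPKM in silenced cells, against 9.30, 7.81 and 15.3 FPKM in CPT-11 cells. After the GC correction KLF16 stood at 0.30 (adjusted p = 0.034), KLF15 at 0.46 (adjusted p = 0.087), SP1 at -0.16 (adjusted p = 0.061), SP3 at -0.09 (adjusted p = 0.14) and KLF8 at 0.00 (adjusted p = 0.98). Without CPT-11 replicate 3 the values were 0.98 for KLF16 (adjusted p = 0.00050), 0.89 for KLF15 (adjusted p = 0.0019), -0.38 for SP1 (adjusted p = 0.00048), -0.40 for SP3 (adjusted p = 0.00065) and -0.19 for KLF8 (adjusted p = 0.028). Each of the 5 also missed the threshold without any of silenced replicates 1 and 2 or CPT-11 replicates 1 and 2, and all but KLF15 without silenced replicate 3, with log2 changes of 0.46 to 0.69 for KLF15, 0.54 to 0.75 for KLF16, -0.21 to -0.17 for KLF8, -0.30 to -0.21 for SP1 and -0.33 to -0.25 for SP3 (adjusted p 0.056 to 0.13). KLF14, SP8 and SP9 passed in no comparison and averaged at most 0.536 FPKM in any group.

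**Figure D5:**
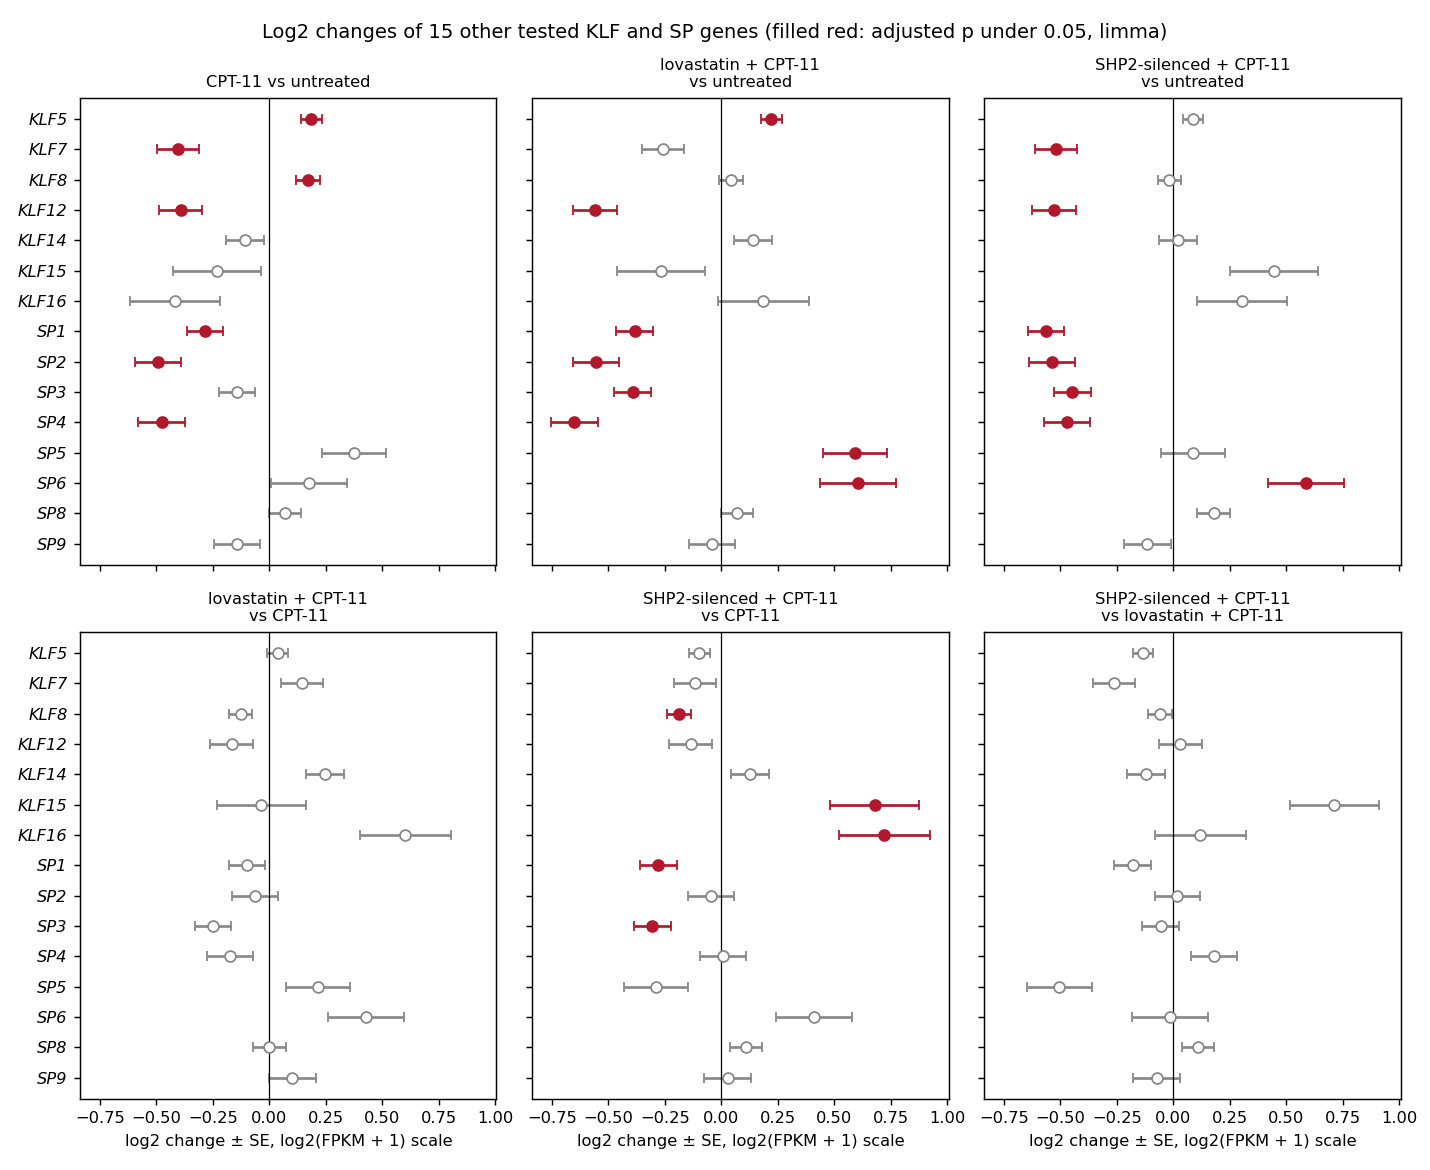
Log2 change ± SE of 15 other tested KLF and SP genes in the 6 comparisons, on the log2(FPKM + 1) scale; filled red points passed the test (limma, adjusted p under 0.05). SP2 and SP4 lie left of 0 in all 3 comparisons with untreated cells (-0.65 to -0.47), and with all 12 libraries none of the 15 passed between lovastatin and CPT-11 and CPT-11 alone.

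Genes around the KLF factors were counted in lists. The median log2 change over the 6 comparisons ran from -0.07 to 0.12 for the MEK5-ERK5-MEF2 list, -0.22 to -0.02 for co-regulators and -0.01 to 0.20 for reported targets. It ran from -0.04 to 0.05 for TGF-beta early genes, -0.24 to 0.15 for genes linked to KLF9 and -0.14 to 0.00 for the other KLF and SP genes, and the median of all genes from -0.01 to 0.00. In the MEK5-ERK5-MEF2 list, 7 of 8 genes were tested, and 2 rose and 1 fell in silenced against untreated cells, 1 rose and 1 fell with lovastatin and CPT-11 against untreated cells, and 1 fell with CPT-11. None passed with lovastatin and CPT-11 against CPT-11 (limma; 1 at an unadjusted p under 0.05). In silenced cells against CPT-11 cells 2 rose and 2 fell, and against lovastatin and CPT-11 cells 1 rose and 1 fell. MAP3K2, a kinase at the head of that cascade, had 4.51, 4.53 and 4.23 FPKM in silenced cells, against 6.88, 6.53 and 5.95 FPKM in CPT-11 cells (log2 change -0.46, adjusted p = 0.0021, and -0.20 with the GC correction, adjusted p = 0.052). MEF2C rose between the same groups (0.50, adjusted p = 0.0052, and 0.72 with the GC correction, adjusted p = 0.00015, limma) and passed under all 21 alternatives. MEF2D rose with lovastatin and CPT-11 against untreated cells (0.36, adjusted p = 0.0038), at 13.3, 13.4 and 12.8 FPKM, against 9.90 to 10.1 FPKM in untreated cells.

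All 8 sterol response genes were tested. All 8 rose with lovastatin and CPT-11 against CPT-11, with a median log2 change of 1.28, and all 8 rose against untreated cells. All 8 fell in silenced against lovastatin and CPT-11 cells. In silenced cells 3 of them fell against untreated cells and 1 rose against CPT-11 cells, and with CPT-11 against untreated cells 2 fell.

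Of 14 co-regulators of KLF factors, 3, 3 and 2 rose and 6, 6 and 6 fell in silenced, lovastatin and CPT-11, and CPT-11 cells against untreated cells. CTBP2, the corepressor of KLF3, fell in all 3, by 0.53, 0.50 and 0.30 on the log2 scale. The acetyltransferase gene KAT2B rose in all 3 (0.54, 0.48 and 0.59). In silenced against CPT-11 cells 1 co-regulator rose and 2 fell, and none passed in the other 2 comparisons (limma; 3 with lovastatin against CPT-11 alone and 1 in silenced against lovastatin cells at an unadjusted p under 0.05). Of 20 genes reported as KLF targets, 15 were tested, and 7, 8 and 7 rose and 3, 3 and 3 fell against untreated cells. CDKN1A, which is also a direct p53 target, had 596, 606 and 626 FPKM in silenced cells, 704, 679 and 636 with lovastatin and CPT-11, 495, 483 and 592 with CPT-11, and 157, 154 and 142 in untreated cells. CCND1, the cyclin D1 gene, fell in silenced against CPT-11 cells (-0.41, adjusted p = 0.00057). Against CPT-11 cells 1 target rose and 1 fell in silenced cells and none passed with lovastatin (limma; 7 at an unadjusted p under 0.05), and against lovastatin and CPT-11 cells 1 rose and 2 fell in silenced cells.

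Of 18 TGF-beta early genes, 17 were tested. In silenced cells 6 rose and 4 fell against untreated cells, 5 rose and 5 fell against CPT-11 cells, and 3 rose and 4 fell against lovastatin and CPT-11 cells. With lovastatin and CPT-11, and with CPT-11, against untreated cells 5 and 2 rose and 1 and 1 fell, and none passed between them (limma; 3 at an unadjusted p under 0.05). SMAD7, the inhibitory SMAD that KLF10 is known to repress, had 2.17, 2.31 and 2.47 FPKM in silenced cells, against 0.687, 0.818 and 1.12 FPKM in CPT-11 cells, a log2 change of 0.83 (adjusted p = 0.0015). ID3, an inhibitor of basic helix-loop-helix factors, rose between the same groups (1.40, adjusted p = 0.0011). SMAD7 rose also with lovastatin and CPT-11 against untreated cells (0.43, adjusted p = 0.016, limma). KLF10 did not pass in that comparison (-0.11, adjusted p = 0.17, limma), and a part of KLF10 in the SMAD7 level was not tested. Of 10 nuclear receptor genes linked to KLF9, 8 were tested, and 2, 3 and 2 rose and 1, 1 and 3 fell in silenced, lovastatin and CPT-11, and CPT-11 cells against untreated cells. TSC22D3, a glucocorticoid-induced gene, was the only one of this list to pass with lovastatin and CPT-11 against CPT-11, and rose by 0.63 (adjusted p = 0.0029). In silenced cells 2 of the list rose and 1 fell against CPT-11 cells, and 1 rose and 1 fell against lovastatin and CPT-11 cells. The shares of all tested genes that passed were 38.1%, 29.1% and 16.7% in silenced, lovastatin and CPT-11, and CPT-11 cells against untreated cells. They were 22.2% in silenced and 0.467% in lovastatin and CPT-11 cells against CPT-11 cells, and 6.91% in silenced against lovastatin and CPT-11 cells. The list counts are descriptions beside these shares.

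With CPT-11 replicate 3 left out, several of the list counts between treated groups were higher, and so were the counts of all genes. Of all 17974 tested genes, 5459 then passed with lovastatin and CPT-11 against CPT-11, and 7844 in silenced against CPT-11 cells. In silenced against lovastatin and CPT-11 cells 2459 passed. The list counts that follow are descriptions beside these. With lovastatin and CPT-11 against CPT-11, 1 gene rose and 1 fell in the MEK5-ERK5-MEF2 list, 2 rose and 5 fell among co-regulators and 4 rose and 1 fell among reported targets. In the same comparison 4 TGF-beta early genes rose, 3 genes linked to KLF9 rose and 2 fell, and all 8 sterol genes rose. In silenced against CPT-11 cells the counts without that library were 4 higher and 6 lower among co-regulators, 3 higher and 1 lower among reported targets, 6 higher and 5 lower among TGF-beta early genes and 1 higher and 3 lower among sterol genes. The MEK5-ERK5-MEF2 list kept counts of 2 and 2, and genes linked to KLF9 counts of 2 and 1. In silenced against lovastatin and CPT-11 cells, 2 reported targets rose and 3 fell, and 1 co-regulator fell.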

How the data were processed

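The deposited table gives FPKM per gene in 12 libraries. Per the submitters' processing notes, the tools were featureCounts 1.5.0-p3, DESeq2 1.16.1, HISAT2 2.0.5 and StringTie 1.3.3b, with no roles stated, and the build was hg19. The coordinates are those of GENCODE release 29 on GRCh38 (100% of 58735 features identical), so GRCh38 is given. Each FPKM value times its deposited gene length was a whole multiple of a step per library (100% of values within 0.01), which recovered the reads and the depth. Genes with at least 10 scaled reads in at least 3 libraries were tested. limma 3.58.1 (R 4.3.3) with a variance trend was fitted on log2(FPKM + 1) with all 12 libraries, and p-values were adjusted by Benjamini-Hochberg over 17974 genes. Fold changes on this scale understate changes of low genes. The fit was tested on simulated data. GC content came from the longest transcript (98.5% of tested genes), and the GC and length correction was a lowess fit per library (span 0.3). Alternatives were a pseudocount of 0.1, no filter, only the compared groups, a replicate block, the GC correction, both, scaling to total reads, voom on recovered reads, each library left out, and the GC correction without CPT-11 replicate 3, which was added after the data were seen. Same-numbered libraries of different groups had deviations correlated at -0.393 to 0.174, over 0.1 in 2 of 18 pairs, so the numbers were not taken to pair them. Nothing says that replicates were separate cultures, and the p-values measure the spread of the libraries at hand, part of which may be technical. Members, lists and motifs were chosen with earlier results of these data known. Named were all members, PTPN11, HMGCS1, all tested KLF and SP genes, up to 2 nearest genes a member, and genes among the 3 with the smallest p of each list in each comparison. Some list results are not reported here. Promoters came from RefSeq (GRCh38.p14).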

Additional observations from a re-analysis of the deposited data

How the results depend on the processing

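Of the 14 member changes that passed, 7 passed under all 21 alternatives: KLF10 in its 3 comparisons, KLF2 in silenced and in CPT-11 cells against untreated cells, and KLF6 in silenced cells against untreated and against lovastatin and CPT-11 cells. The other 7 kept their direction under all 21 and missed the threshold under some. Of 157 passing changes of 58 other named genes, 99 passed under all. The cause of the changes below was not tested. For CPT-11 against untreated cells, 1 member passed with no filter, with only the compared groups, with the replicate block or with scaling to total reads, and genes passing numbered 1155 with only the compared groups, 4531 with the GC correction and 4822 with that correction without CPT-11 replicate 3, against 2998. For lovastatin and CPT-11 against untreated cells, 0 members passed with no filter and 1 with the replicate block. For lovastatin and CPT-11 against CPT-11, 0 members passed with a pseudocount of 0.1, no filter, only the compared groups or the replicate block, and 2 with the GC correction without CPT-11 replicate 3. Genes there numbered 36 with only the compared groups, 46 with the replicate block, 287 with the GC correction, 140 with the block and the correction, 141 with voom and 2926 with the correction without that library, against 84. For silenced against CPT-11 cells, 1 member passed with only the compared groups, with the GC correction, with the replicate block and GC correction, or with the correction without CPT-11 replicate 3, and genes numbered 1750 with no filter, 461 with only the compared groups, 2379 with the replicate block and 2296 with block and correction, against 3993. For silenced against lovastatin and CPT-11 cells, 4 members passed with the GC correction without CPT-11 replicate 3, and genes numbered 826 with no filter, 2463 with only the compared groups, 777 with the replicate block, 2188 with the GC correction and 2734 with the correction without that library, against 1242. Leaving out 1 library at a time, members passing ranged 3 to 5 and 0 to 2 in silenced and in lovastatin and CPT-11 cells against untreated cells, 1 to 2 for CPT-11 against untreated cells, 0 to 3 and 1 to 5 for lovastatin and CPT-11 and for silenced cells against CPT-11, and 2 to 3 for silenced against lovastatin cells. Genes ranged in the same order from 5133 to 8237, 3775 to 6784, 1935 to 4418, 41 to 5459, 1028 to 7844 and 598 to 2459, and each of these 6 highest counts was without CPT-11 replicate 3. Among changes that passed in the reported fit or in the alternative, directions turned for 3 genes that are not members, all with the GC correction. SP5 in silenced against untreated cells was at -0.263 with it, with and without the replicate block, and at -0.264 without CPT-11 replicate 3 as well. KLF8 in silenced against untreated cells was at 0.185 with both changes (the correction and that library left out), and against CPT-11 cells at 0.0041 with the correction, block or not, and 0.0713 with both. SIN3B, in silenced against CPT-11 cells, was at -0.0141 with both. Members turned only where neither fit passed. KLF2 in silenced against CPT-11 cells, for example, was at 0.32 as reported and at -0.04 with the GC correction.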
